A study of Homo sapiens with 4 samples.

Results

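The 10 genes described here encode cadherins, calcium-dependent adhesion proteins of the cell surface. They were taken by symbol from a table of 58051 genes, and all 10 symbols were found. By structure, CDH1, CDH2, CDH3 and CDH4 are type I classical cadherins and CDH5, CDH6 and CDH11 are type II classical cadherins. CDH13, CDH16 and CDH17 carry cadherin repeats but lack the long cytoplasmic tail of the classical members, so the 10 are a wider set than classical cadherins alone. The libraries came from IGROV1, an established human ovarian carcinoma line. A cisplatin-resistant line (CR, 2 libraries) was set against the wild-type parent (WT, 2 libraries). Cisplatin is a platinum drug that crosslinks DNA. To select the CR line, cells were exposed to it for 4 hours and then kept free of it for 3 weeks, and the dose was raised over 6 such rounds in 5 months. No drug was present when either line was harvested in log phase, and no other treatment or genetic change is named. The labels call the replicates biological but do not say that they came from separate cultures. All CR libraries represent 1 selected line, so p-values measure the spread between these samples and not between independent selections.

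Cadherins bind each other across the gap between neighbouring cells. The tail of a classical cadherin binds p120-catenin and beta-catenin, and alpha-catenin and its partners connect that complex to actin. Epithelia typically rely on E-cadherin (CDH1), and a swap of E-cadherin for N-cadherin (CDH2) is a common sign of a change towards a mesenchymal state. The comparison of CR with WT shows which cadherin transcripts the drug-free resistant line carried, beside those of its parent. Cadherin protein was not measured in these libraries.

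CR cells carried more CDH1 and less CDH5 and CDH17 transcript than WT cells. CDH5, the cadherin of endothelial junctions, was nearly lost, at 0.989 ± 0.0475 CPM in CR and 44.0 ± 3.31 CPM in WT. CPM are counts scaled to library size, and errors of means are SDs over the 2 libraries of a group. CDH1 averaged 244 ± 19.6 CPM in CR and 79.7 ± 39.7 CPM in WT. CDH2 was not higher in CR: it had 1 count in the CR libraries together, against 16 counts in the WT libraries. CDH6 and CDH11 had 0 counts in all 4 libraries. Of the 10 genes, 8 had a count, and 6 passed the low-count filter and were tested. Of these, 1 rose, 2 fell and 3 did not pass by edgeR, whose p-values were adjusted over all tested genes and held to 0.05. Over all 17304 genes tested 13.5% passed, 5.44% higher and 8.1% lower in CR. These shares are also the background for the count of every list below. The median log2 fold change of the 6 was -0.59, beside -0.0065 over all tested genes. In bulk RNA, fewer cells that express a gene and less RNA per cell cannot be told apart.

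**Figure D1:**
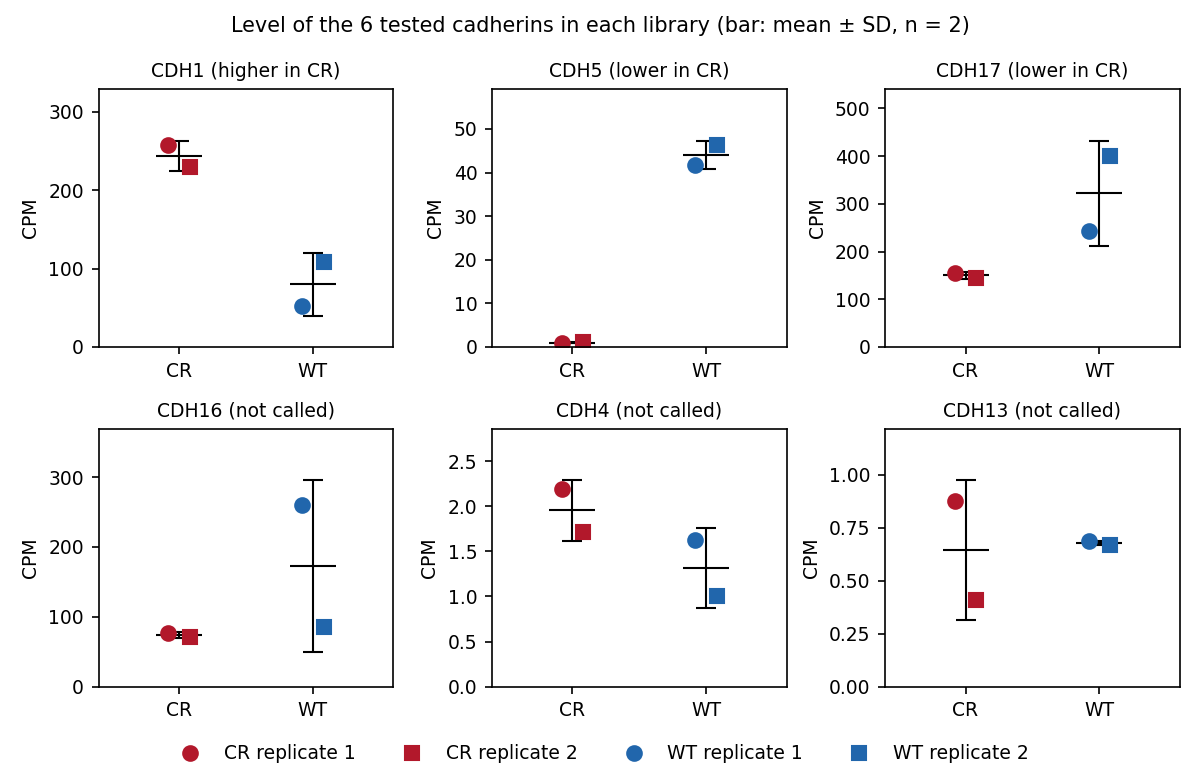
CPM of the 6 tested cadherins in each library, with CR on the left and WT on the right of every panel; points are libraries and bars are mean ± SD (n = 2). CDH1 sits between 230 and 258 CPM in CR, above both WT libraries, CDH5 lies near 1 CPM in CR and above 41 CPM in WT, and the WT libraries lie far apart for CDH16.

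Library totals lay between 23886257 and 24727362 counts. Replicates stood closer together in CR, where the log2 difference between them had a median absolute deviation of 0.246 over tested genes, than in WT, where it was 0.645. All 8 markers of ovarian carcinoma epithelium had counts, and 7 were tested. Beside 5.44% of all tested genes higher and 8.1% lower in CR, 1 marker rose (EPCAM) and 4 fell (KRT8, KRT18, MUC16 and MSLN). The 8 markers summed to 2545 to 2707 CPM in CR and 3433 to 4866 CPM in WT. PAX8, a Mullerian lineage factor, had 399 and 395 CPM in CR and 546 and 286 CPM in WT, and EPCAM, an epithelial adhesion molecule, 194 and 224 CPM in CR and 113 and 118 CPM in WT. The EPCAM call was lost without CR replicate 1 (edgeR adjusted p = 0.175) or CR replicate 2 (0.392). That of KRT18 (adjusted p = 0.0492) was lost without CR replicate 1 (0.262) or CR replicate 2 (0.0804), and under 4 other settings its adjusted p was 0.0522 to 0.0727. WT1, a marker of serous tumours, had at most 20 counts in a library. Leukocyte markers summed to at most 2.66 CPM in any library.

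Among the type I members, CDH1 (E-cadherin) held nearly all transcript. CDH1 (ENSG00000039068) lies on chromosome 16 at 68737225 to 68835548 (GRCh38). It had 258 and 230 CPM in CR replicates 1 and 2, from 6468 and 5616 counts, and 51.6 and 108 CPM in WT replicates 1 and 2, from 1205 and 2574 counts. Both CR libraries were above both WT libraries, and the WT libraries differed from each other 2.09-fold. CDH1 was 3.05-fold higher in CR (log2 fold change 1.61, SE 0.34, 95% interval 0.80 to 2.43; edgeR adjusted p = 0.0231). The fitted fold was 2.26 without WT replicate 1 and 4.72 without WT replicate 2, against 3.06 with all libraries. FTLP14, a ferritin pseudogene inside the CDH1 locus on the same strand, had 24 and 35 counts in CR and 21 and 12 counts in WT, far below the counts of CDH1.

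CDH2 (N-cadherin), the cadherin of neural and mesenchymal cells, was at the edge of detection. It lies on chromosome 18 at 27950966 to 28177446. It had 1 and 0 counts in CR and 2 and 14 counts in WT, so 1 WT library held most of them. The ratio of WT to CR was 16.8, with a 95% counting interval of 2.61 to 704. This interval covers counting error only, and the gap between the WT libraries themselves was 6.84-fold. CDH2 failed the low-count filter; with no filter its adjusted p was 0.0639 (edgeR). CR replicate 1 had 6468 CDH1 counts for each CDH2 count, and CR replicate 2 had none of CDH2. WT replicates 1 and 2 had 602.5 and 184 CDH1 counts for each CDH2 count.

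CDH3 (P-cadherin), found in placenta and basal epithelia, begins upstream of CDH1 with a gap of 14.6 kb between the genes. It had 3 and 0 counts in CR and 3 and 4 counts in WT, a ratio of WT to CR of 2.45 with a counting interval of 0.559 to 14.7, and was not tested. The closest cadherin neighbour of CDH1 was thus close to silent in both lines. CDH4 (R-cadherin), first described in retina, lies on chromosome 20 at 61252426 to 61940617. It had 2.19 and 1.72 CPM in CR and 1.63 and 1.01 CPM in WT. The groups did not overlap, yet CDH4 did not pass (log2 fold change 0.57, 95% interval -0.47 to 1.61; edgeR adjusted p = 0.495). The interval leaves room for a 3.05-fold higher level in CR.

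Among the type II members, CDH5 (VE-cadherin) was the sole gene with counts. CDH5 (ENSG00000179776) lies on chromosome 16 at 66366622 to 66404786. It had 0.955 and 1.02 CPM in CR, from 24 and 25 counts, and 41.7 and 46.4 CPM in WT, from 973 and 1107 counts. Replicates differed 1.07-fold in CR and 1.11-fold in WT, far less than the groups. CDH5 was 44.6-fold lower in CR (log2 fold change -5.47, SE 0.28; edgeR adjusted p = 0.000138), and 32 genes of the 17304 had a smaller p. No alternative ended this call. CDH6 (K-cadherin), known from fetal kidney and from renal and ovarian carcinomas, and CDH11 (OB-cadherin) of osteoblasts and stromal cells had 0 counts in every library. A count of 0 allows up to 0.119 to 0.129 CPM in a single library, so lower levels were not detectable at this depth.

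Of 8 other endothelial markers, 5 had counts, 3 were tested, 1 rose and 0 fell. KDR, ERG and EMCN, which encode a VEGF receptor, a transcription factor and a sialomucin, had 0 counts in all 4 libraries. The list's summed level was 29.98 to 34.04 CPM in CR and 25.8 to 39.9 CPM in WT, most of it VWF (von Willebrand factor), with 28.7 and 25.5 CPM in CR and 25.2 and 38.7 CPM in WT. PECAM1, an immunoglobulin-type adhesion molecule, rose, with 3.78 and 3.27 CPM in CR and 0.129 and 0.335 CPM in WT (15.2-fold, edgeR adjusted p = 0.0045). Its fitted fold was 10.4 without WT replicate 1 and 26.4 without WT replicate 2. PECAM1 and CDH5 thus moved in opposite directions. CLDN5, a tight junction claudin, had 25 and 18 counts in CR and 7 and 5 counts in WT and did not pass (edgeR adjusted p = 0.0942). Of the untested markers, the receptor TIE1 had 9 and 11 counts in CR and 0 in WT, and the receptor TEK had 5 and 0 counts in CR and 4 and 17 counts in WT. Of 8 fibroblast markers, 4 were tested, 0 rose and 1 fell, and DCN, LUM and COL1A2 were at 0 in all libraries. The list's summed level was 9.87 to 9.98 CPM in CR and 44.7 to 73.3 CPM in WT. Most of the WT sum was COL1A1, a collagen chain, with 57.1 and 31.4 CPM in WT. COL1A1 was 32.2-fold lower in CR (edgeR adjusted p = 0.000575). PDGFRA (2.57-fold higher in CR), PDGFRB (1.88-fold lower) and THY1 (1.80-fold lower) did not pass. The part of these markers in the cadherin results was not tested.

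The members without a classical tail were led by CDH17 and CDH16. CDH17 (LI-cadherin, ENSG00000079112), known from liver and intestine, lies on chromosome 8 at 94127171 to 94217303. It had 155 and 145 CPM in CR and 244 and 400.2 CPM in WT. CDH17 was 2.15-fold lower in CR, and both CR libraries lay below both WT libraries (log2 fold change -1.10, SE 0.26, 95% interval -1.71 to -0.49; edgeR adjusted p = 0.033). This call was lost without CR replicate 1 and without CR replicate 2, in fits that take their spread from the WT pair. The fitted size moved little in those fits, to 2.22-fold and 2.06-fold lower. It moved more when a WT library was left out, to 2.66-fold lower without WT replicate 1 and 1.63-fold lower without WT replicate 2.

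Of 4 intestinal markers, 2 were tested, 0 rose and 1 fell. VIL1, an actin-bundling protein of microvilli, had 2.07 and 1.55 CPM in CR and 144 and 190.2 CPM in WT, and was 92.04-fold lower (edgeR adjusted p = 0.000124). The 4 listed markers summed to 2.45 to 2.95 CPM in CR and 144 to 190.2 CPM in WT. CDX1 had 0 counts everywhere. CDX2, an intestinal transcription factor that activates CDH17, had 5 and 4 counts in CR and 0 counts in WT. LGALS4, an intestinal galectin, had 17 and 18 counts in CR and 13 and 1 counts in WT and did not pass (edgeR adjusted p = 0.453). The part of these markers in the CDH17 result was not tested.

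CDH16 (KSP-cadherin, ENSG00000166589) is known from kidney tubules and thyroid. It lies on chromosome 16 at 66908122 to 66918984, 503 kb from CDH5. It had 76.6 and 71.1 CPM in CR and 259 and 85.4 CPM in WT. Both CR libraries were below both WT libraries, but the gap between CR and WT replicate 2 was small and the WT libraries differed 3.04-fold. CDH16 did not pass (log2 fold change -1.22, SE 0.47, 95% interval -2.33 to -0.12; edgeR adjusted p = 0.153). By the fitted fold it was 1.15-fold lower in CR without WT replicate 1 and 3.51-fold lower without WT replicate 2. DESeq2 called CDH16 with all libraries (adjusted p = 0.0247). Of 4 kidney tubule markers, 2 were tested and 0 passed. The 4 summed to only 1.68 to 2.43 CPM in CR and 0.712 to 0.728 CPM in WT, with UMOD (uromodulin) at 0.

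CDH13 (T-cadherin) is held in the membrane by a lipid anchor and binds adiponectin. Its gene spans 82626803 to 83800640 on chromosome 16. It had 0.876 and 0.409 CPM in CR and 0.685 and 0.67 CPM in WT, and the groups overlapped. CDH13 did not pass (log2 fold change -0.07, 95% interval -1.39 to 1.24; edgeR adjusted p = 0.961), and its direction turned without CR replicate 2 (log2 fold change 0.38). ADIPOQ, which encodes adiponectin, had 0 counts. Of the 6 tested members, CDH13 was the sole one whose groups overlapped; the CR libraries lay on 1 side of the WT libraries for 55.3% of all tested genes.

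**Figure D2:**
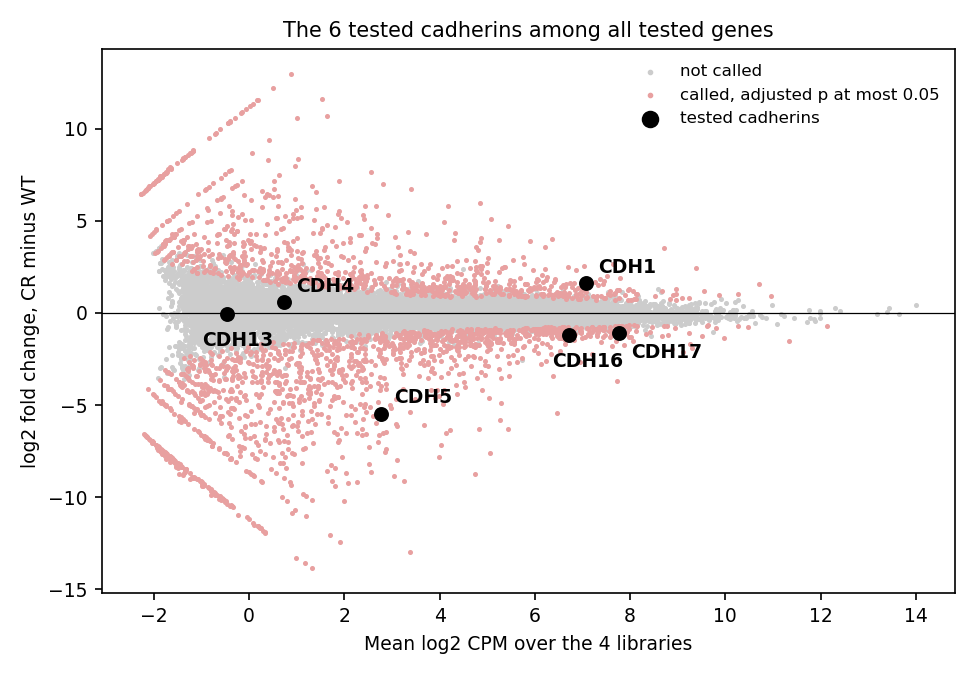
Log2 fold change (CR minus WT) against mean log2 CPM over the 4 libraries for 17304 tested genes, with called genes in pink, other genes in grey and the 6 tested cadherins in black. CDH5 lies at -5.47, while CDH1, CDH16 and CDH17 lie between -1.22 and 1.61 among the more abundant genes.

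Levels can be set between genes once length is taken into account. As CPM per kb of exon (all annotated exons merged), CDH1 and CDH17 were level in CR, at 41.7 and 37.2 for CDH1 and 39.8 and 37.1 for CDH17. CDH16 followed at 20.9 and 19.5 CPM per kb, and CDH4, CDH5, CDH13, CDH3 and CDH2 were at or under 0.298 CPM per kb in each CR library. In WT the order was CDH17 with 62.6 and 102.6 CPM per kb, CDH16 with 70.9 and 23.4, CDH1 with 8.36 and 17.5, and CDH5 with 6.85 and 7.62. CDH17 and CDH16 overlapped in WT. CDH1 and CDH5 did not, but lay close. With the longest coding length in place of exon length, CDH1 was above CDH17 in CR, at 95.1 and 84.8 against 62.2 and 58.0 CPM per kb. In WT, CDH1 with 19.1 and 39.8 then overlapped CDH5 with 17.7 and 19.7 CPM per kb across libraries. Within each library, CDH1 stayed above CDH5 in WT and above CDH17 in CR under both lengths, so only the gaps changed. The order of CDH1 and CDH16 did turn in WT replicate 2, to 39.8 for CDH1 against 34.3 CPM per kb for CDH16.

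As shares of the summed CPM per kb of the 10 genes, CDH1 made up 40.5% and 39.5% in CR and 5.61% and 11.5% in WT. The mean share was 40.0% ± 0.707 in CR and 8.57% ± 4.19 in WT. CDH17 took 38.7% and 39.4% in CR and 42.0% and 67.8% in WT, so its share in CR was close to that of WT replicate 1. CDH16 took 20.3% and 20.6% in CR and 47.6% and 15.4% in WT, with CR between the WT libraries. CDH5 fell to 0.153% and 0.178% in CR, against 4.6% and 5.04% in WT. The other 6 genes together took at most 0.392% in any library. CDH1 and CDH5 were within 2.29-fold of each other in each WT library, whereas CDH1 exceeded CDH5 265-fold and 221-fold in CR. These shares are descriptions and were not tested.

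**Figure D3:**
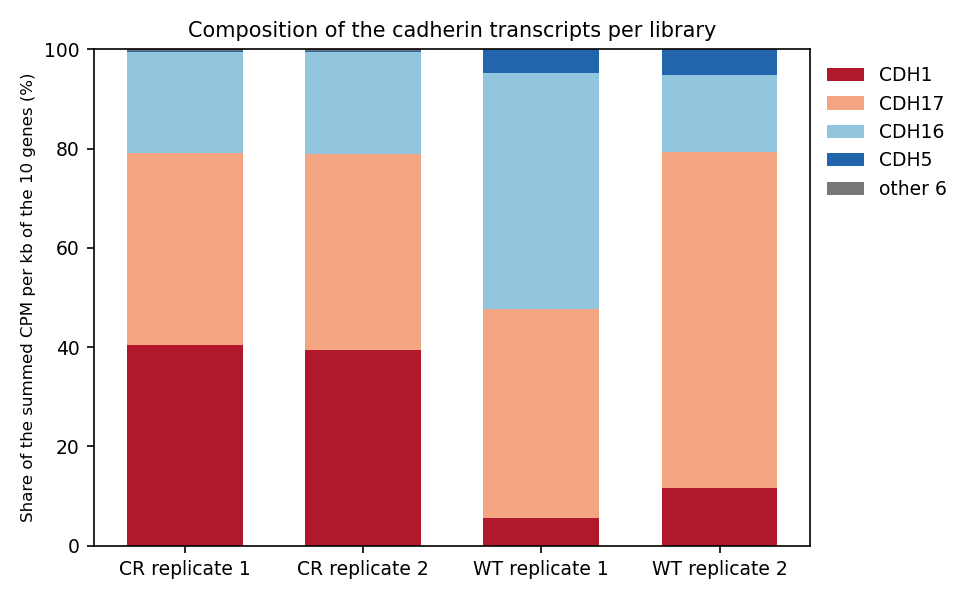
Share (%) of each cadherin in the summed CPM per kb of the 10 genes, 1 bar per library, CR on the left. CDH1 fills 39.5% to 40.5% of the CR bars and 5.61% to 11.5% of the WT bars, CDH5 is visible only in WT, and the boundary between CDH17 and CDH16 differs between the WT libraries.

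Of the 10 genes, 6 lie on chromosome 16, in the order CDH11, CDH5, CDH16, CDH3, CDH1 and CDH13. CDH5, which fell, and CDH1, which rose, are 2332 kb apart. The nearest tested genes beside CDH1, ZFP90 and TANGO6, did not pass. ZFP90, a zinc finger gene, had 18.1 and 18.8 CPM in CR and 15.5 and 19.1 CPM in WT. TANGO6, only 8.06 kb away, had 25.0 and 21.3 CPM in CR and 22.3 and 34.3 CPM in WT. Beside CDH5, the long noncoding RNA LINC00920, at a distance of 3.74 kb, was 9.45-fold lower in CR, with 5 and 6 counts in CR and 34 and 65 counts in WT (log2 fold change -3.21; edgeR adjusted p = 0.012). The nearest tested feature on the other side of CDH5 was a ribosomal protein pseudogene, RPS27AP16, 5311 kb away, which did not pass. LINC00920 is on the same strand as CDH5, and how the counting assigned reads near their border is not given in the sources used here. Beside CDH17, PDP1 had 19.5 and 22.2 CPM in CR and 10.1 and 28.3 CPM in WT. On its other side GEM, a small GTPase, had 1.19 and 0.818 CPM in CR and 0.471 and 0.126 CPM in WT. Neither passed.

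By distance in log2 CPM over the 4 libraries, the protein-coding genes most like CDH17 were MFAP5 (distance 0.276), ACTR3 (0.33) and SORT1 (0.412). None of the 3 passed (edgeR adjusted p = 0.0542, 0.0581 and 0.157). Those most like CDH1 were NELL2 (distance 0.369), EML4 (0.586) and WASHC4 (0.598). NELL2 and EML4 were called higher in CR (edgeR adjusted p = 0.00846 and 0.0198), and WASHC4 did not pass (edgeR adjusted p = 0.114). NELL2 had 243 and 237 CPM in CR and 65.6 and 101 CPM in WT. This measure compares level and pattern over only 4 libraries.

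Of 13 catenins and actin linkers, 10 were tested in edgeR, 0 rose, 1 fell and 9 did not pass, with a median log2 fold change of -0.20. CTNNB1 (beta-catenin) had 553 and 545 CPM in CR and 480.0 and 558 CPM in WT, and CTNNA1 (alpha-catenin) 606 and 550 CPM in CR and 624 and 730.3 CPM in WT. CTNND1 (p120-catenin) had 307 and 248 CPM in CR and 299 and 355 CPM in WT. The groups overlapped for CTNNB1 and CTNND1. JUP (plakoglobin), which serves both adherens junctions and desmosomes, had 209 and 193 CPM in CR and 131 and 69.1 CPM in WT. It was 2.02-fold higher in CR without passing in edgeR (adjusted p = 0.084), and DESeq2 called it higher (adjusted p = 0.0151). The member that fell was ZYX (zyxin), which binds actin at adhesion sites, with 131 and 121 CPM in CR and 272 and 211 CPM in WT (edgeR adjusted p = 0.0241). That call was lost without CR replicate 1 (adjusted p = 0.167) or CR replicate 2 (adjusted p = 0.258).

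Nectins are immunoglobulin-type adhesion molecules that work beside cadherins at adherens junctions. Of 4 tested, 2 fell and 2 did not pass, where 8.1% of all tested genes fell. NECTIN2 had 114 and 115 CPM in CR and 239.8 and 191 CPM in WT (edgeR adjusted p = 0.0246), a call lost without CR replicate 1 (0.267) or 2 (0.251). NECTIN4, an antibody-drug target in carcinoma, had only 8 and 2 counts in CR and 24 and 34 counts in WT, and was at the threshold (edgeR adjusted p = 0.0495). It was not called without CR replicate 2 (0.366), with RLE factors (0.051), with library size alone (0.0521) or by DESeq2 (0.0561). Its fitted fold was 14.1-fold lower without CR replicate 1 and 3.78-fold lower without CR replicate 2, against 5.97-fold lower with all libraries.

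Desmosomes hold their own cadherins. Of 11 desmosomal genes, 4 were tested, 0 rose and 1 fell, where 8.1% of all tested genes fell. DSG2 (desmoglein 2), the sole desmosomal cadherin that was tested, had 204 and 175 CPM in CR and 203 and 399 CPM in WT and did not pass. PKP2 (plakophilin 2), which links desmosomal cadherins to desmoplakin, fell to 25.6 and 21.6 CPM in CR, against 81.4 and 176 CPM in WT (log2 fold change -2.45; edgeR adjusted p = 0.00703). PKP2 was 5.47-fold lower, and its fitted fold was 7.44 without WT replicate 1 and 3.45 without WT replicate 2. The other type I and type II cadherins were mostly silent: of 11, 7 had 0 counts in all libraries and 2 were tested. CDH24, a widely expressed type II cadherin, fell, with 17.9 and 17.1 CPM in CR and 51.4 and 37.1 CPM in WT (edgeR adjusted p = 0.0143), a call lost without CR replicate 1 (0.114) or 2 (0.164). CDH15, a muscle cadherin, had 0.995 and 0.736 CPM in CR and 0.471 and 0.293 CPM in WT and did not pass.

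Of 16 listed regulators of cadherin genes, 6 were tested, 1 rose, 1 fell and 4 did not pass. Over all tested genes 13.5% passed. ZEB1, a repressor of CDH1, had 38.6 and 32.9 CPM in CR and 24.4 and 28.2 CPM in WT and did not pass (edgeR adjusted p = 0.283). ZEB1 transcript was thus present in both lines, and its part in the CDH1 result was not tested. SNAI1 (Snail) had 1.83 and 1.96 CPM in CR and 2.53 and 2.09 CPM in WT, and SNAI2, TWIST1 and TCF4 had at most 5 counts in a library. ZEB2, TWIST2 and the epithelial activator GRHL2 had 0 counts in all libraries. OVOL2, a repressor of ZEB1 in epithelia, had 0 counts in CR and 17 and 29 counts in WT. It was at least 16.1-fold lower in CR, taking 3 counts in both CR libraries together as the floor (edgeR adjusted p = 0.0109). FOXC2, a forkhead factor linked to mesenchymal change, rose, with 36 and 28 counts in CR and 4 and 3 counts in WT (edgeR adjusted p = 0.0132).

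Genes of cadherin processing, shedding and uptake gave no call. All 10 listed were tested and 0 passed in edgeR, where 0 had an unadjusted p under 0.05. DESeq2 and limma-voom called 0 as well. ADAM10, the protease that sheds E-cadherin, had 326 and 289.9 CPM in CR and 183 and 338 CPM in WT, and FURIN, which removes the cadherin propeptide, 247 and 216 CPM in CR and 217 and 185 CPM in WT. The number that passed changed when a WT library was left out. So did the number over all genes, because such a fit takes its spread from the CR pair.

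Of 10 ligands and surface partners, 8 were tested, 2 rose, 0 fell and 6 did not pass, where 5.44% of all tested genes rose. FGFR1, a growth factor receptor that N-cadherin can stabilise, had 401 and 363 CPM in CR and 162 and 158 CPM in WT, 2.39-fold higher (log2 fold change 1.26, SE 0.17; edgeR adjusted p = 0.00402). CDH2 transcript was nearly undetected in both lines, and its link to the FGFR1 level was not tested. IGF1R, a receptor found in complexes with E-cadherin, had 214 and 171 CPM in CR and 66.3 and 87.2 CPM in WT (edgeR adjusted p = 0.0104), a call lost without CR replicate 1 (0.0724). PTPRB, the phosphatase known as VE-PTP that binds VE-cadherin, had 3 and 7 counts in CR and 11 and 16 counts in WT and did not pass. ITGAE, an integrin chain that binds E-cadherin, had 30.02 and 35.9 CPM in CR and 24.9 and 33.9 CPM in WT, with overlapping groups.

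**Figure D4:**
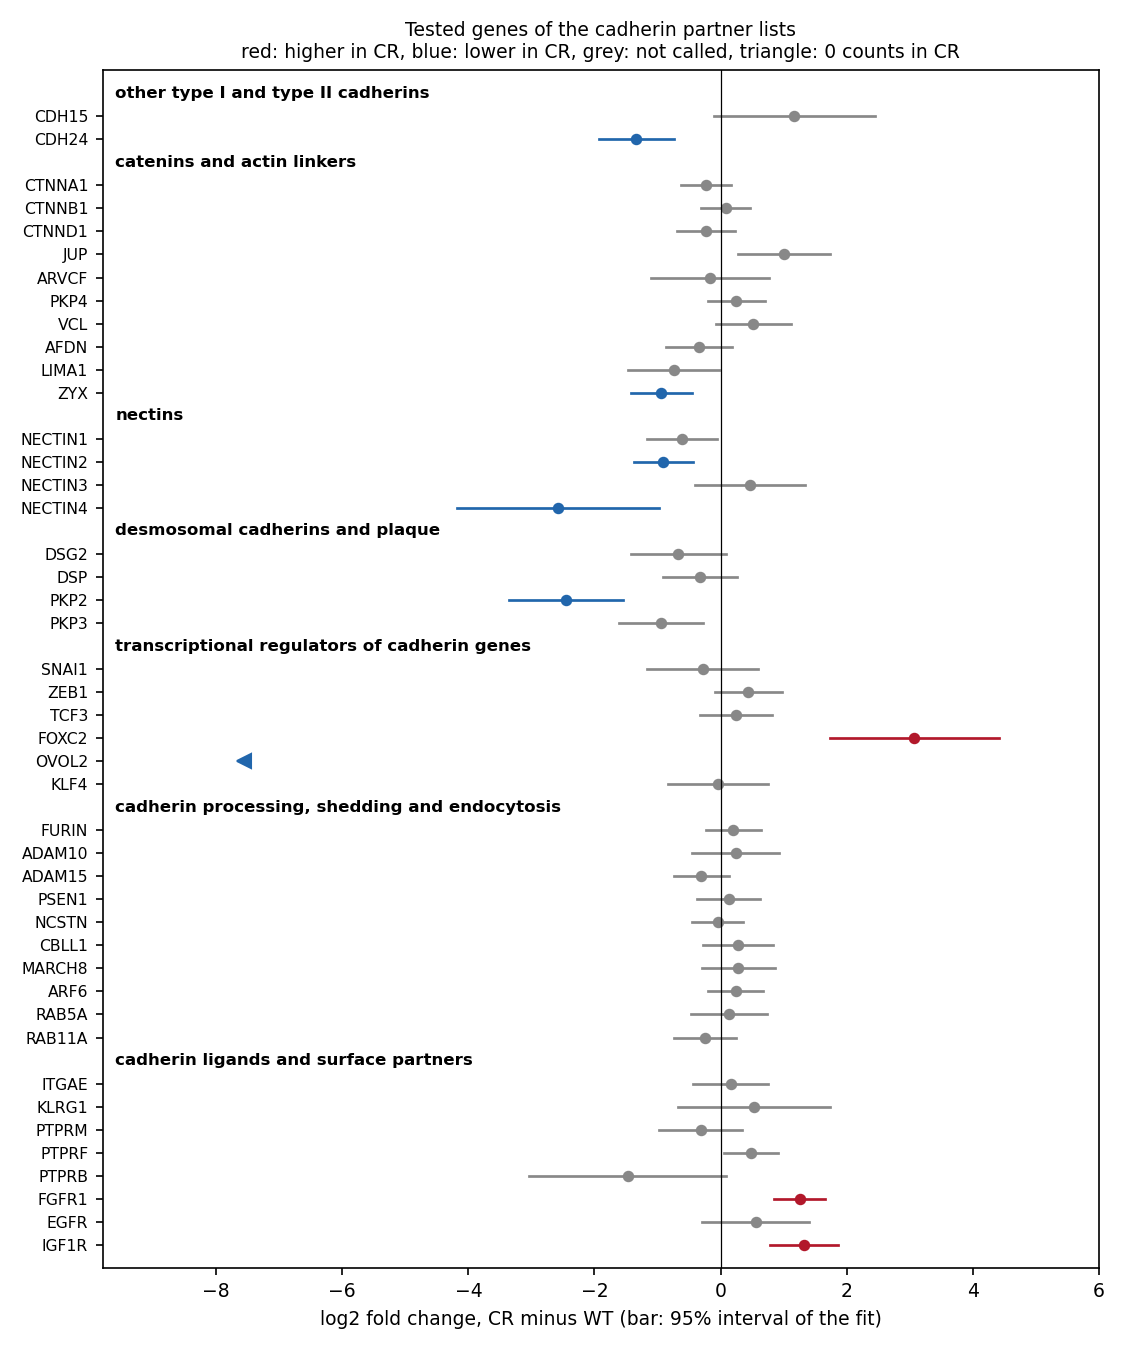
Log2 fold change (CR minus WT) of each tested gene of the 7 partner lists, with the 95% interval of the fit as a bar; red genes were higher in CR, blue genes lower and grey genes not called. FOXC2, FGFR1 and IGF1R are red, and CDH24, ZYX, NECTIN2, NECTIN4, PKP2 and OVOL2 are blue; the triangle marks OVOL2, whose fitted value depends on the prior count because CR had 0 counts.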

How the data were processed

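Poly(A) RNA of 4 IGROV1 libraries was made into strand-marked libraries, per the labels' protocols. The authors deposited whole-number counts per Ensembl gene, with no normalization. The submitters' processing notes name STAR 2.5.1a, HTSeq, DESeq and build GRCh38.p7, without roles. For the annotation release and strand setting nothing is stated in the labels, so overlapping or antisense genes may not have been separated. The deposited normalized table was not used. Counts of the 2 CR and 2 WT libraries were fitted in 1 model with edgeR 4.0.16 in R 4.3.3. It used filterByExpr with a minimum count of 10, TMM factors, a robust quasi-likelihood fit with group as the only term and a two-sided test. P-values were adjusted over all tested genes (Benjamini-Hochberg, threshold 0.05). CPM use TMM-adjusted library sizes. Intervals of the log2 fold change use the fit's degrees of freedom. SE is the absolute log2 fold change over the square root of F. Folds are ratios of group counts, each summed over libraries and divided by the summed adjusted library sizes, and "fitted fold" is the model's. Coordinates, neighbours and exon lengths came from GENCODE 29 (GRCh38), where 57447 identifiers were found. Counting intervals are exact (95%), and with intervals and floors of 3 counts they cover counting error only. Rows without a symbol (20988) held 0.436% to 0.535% of the counts and stayed in under their identifiers. With 2 libraries a group, exact permutation tests of single values could not pass the threshold and were not run. The members and lists were chosen with earlier results of these data known. All 10 members, up to 6 called genes of each partner list, the nearest tested gene on each side of a called member and the 3 genes closest in log2 CPM (prior count 2) to the 2 most abundant members are named. Other genes of the lists were named after their values were seen. 1 gene of the regulator list is not reported here and is left out of its counts. The alternatives were other scaling factors, other filters, DESeq2 1.42.0, limma-voom (limma 3.58.1), the replicate number as a block and leaving out each library. The code was tested on simulated counts.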

Additional observations from a re-analysis of the deposited data

How the results depend on the processing

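CDH1 and CDH5 were called with the same direction in all 13 alternatives. CDH17 was called in all but those without a CR library. Members called ranged from 2 to 4 when 1 library was left out. CDH13 had log2 fold changes of -0.72 without CR replicate 1 and 0.38, a reversal, without CR replicate 2; it had no value under the stricter filter. Over all genes, 2344 calls became 1430 to 7886 with 1 library left out, because the spread of the group with 1 library is then taken from the other pair. The ranges in these fits were 0 to 1 for the other type I and type II cadherins, 0 to 5 for catenins and actin linkers, 0 to 4 for nectins and 1 to 4 for desmosomal genes. They were 2 to 3 for regulators, 0 to 5 for processing genes and 1 to 5 for ligands and partners. Catenins and actin linkers had 3 calls with no low-count filter, 2 with DESeq2 and 2 with the replicate block. Nectins had 1 call with RLE factors, 1 with library size alone, 1 with the stricter filter and 1 with DESeq2. Desmosomal genes had 2 calls with no filter, 2 with DESeq2 and 2 with the replicate block. Regulators had 0 with the stricter filter (minimum count of 30), which removed both called genes. The CDH1 share was 31.4 percentage points higher in CR, 28.4 to 34.4 with 1 library left out and 37.8 with coding length. The labels share replicate numbers but name no shared batch. Across genes, replicate differences in CR and WT correlated at -0.174. This single value cannot tell whether libraries were paired, and the main fit had no pairing term. With the replicate block 2775 genes and 4 members were called, CDH16 among them (adjusted p = 0.00646, edgeR). The crossed pairing, added after seeing the data, gave 3474 genes and 4 members. The causes of the other changes were not tested. CDH2, CDH3, CDH6 and CDH11 did not pass the low-count filter and were not tested in the main fit. With no filter, CDH2 (adjusted p = 0.0639) and CDH3 (0.726) were not called by edgeR. Levels under the detection floor could not be seen at this depth.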
